A study of Mus musculus with 3 samples.

Results

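Ubiquitin ligases attach ubiquitin to chosen proteins and so set their turnover or their signaling. In T cells, several of them restrain the signal from the antigen receptor or pass on the signal that follows it. HECT ligases such as Nedd4 and Itch take up the ubiquitin themselves before they hand it on, RING ligases such as Cblb, Cbl, Traf6 and Peli1 bring the ubiquitin-carrying enzyme to the substrate, F-box proteins such as Fbxo42 pick substrates for cullin-RING complexes, and Arih1 and Arih2 are RING-between-RING ligases that work with cullin complexes. The 3′ end of an mRNA is made by cleavage and polyadenylation, usually a short way downstream from a hexamer such as AATAAA. A gene with several such sites in its last exon can make mRNAs with one coding sequence and 3′ UTRs of different length.

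The isoforms of 10 ubiquitin ligase genes were followed in long-read libraries of mouse CD4+ T cells. Nedd4, Cblb, Traf6 and Fbxo42 were chosen by the length of their last exon, which differed between these same libraries, and Itch, Nedd4l, Cbl, Peli1, Arih1 and Arih2 were added as relatives. The differences of the first 4 genes are therefore given as a description and are not evidence for a general pattern. Of 34238 isoforms in the series, 38 were assigned to the 10 genes, namely 11 of 10527 isoforms of naive cells, 19 of 12602 of undivided cells and 8 of 11109 of cells with 2 divisions.

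There was 1 PacBio library for each of 3 conditions. All cells were wild-type CD4+ T cells from spleens and lymph nodes of young adult male C57BL/6N mice, and the sources used here do not say how many animals gave each library. Cells were dyed with CellTrace Violet. Naive cells were taken at the start without stimulation, and the other cells were grown for 48 h on coated anti-CD3 with soluble anti-CD28 antibodies. Dye peaks were then sorted to obtain cells with 0 divisions, called undivided here, and cells with 2 divisions. Undivided cells were a mixed population by the study's surface staining, since some of them had not yet turned on early activation markers. Both activated libraries shared a sequencing cell and the naive library was on another, so the effects of activation and of the sequencing cell cannot be told apart. With 1 library per condition no test was made, and each difference below is one between libraries. The files list the exons of each isoform with no read counts. An isoform was thus listed or not, and a gene without an isoform may still be expressed below the depth of the library.

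The identity of the cells was checked with marker genes. All 8 of the CD4 T cell markers examined had an isoform in naive cells, against 6 in each activated library, where Cd3g and Trac had none. Of 5 B cell markers, 4 had an isoform in naive cells, among them Ighm with 12 and Ms4a1 with 2, and 2 had one in each activated library, namely Ighm and Cd74. Markers of CD8 T and NK cells were seen for 1, 2 and 1 of 4 genes in naive, undivided and 2-division cells, and markers of myeloid cells for 1, 0 and 0 of 5. The part of such other cells in the isoforms described below was not tested.

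The genome sequence before the end of an isoform shows whether a poly(A) signal lies near it. The sequences that follow show the last bases before the ends of Nedd4, Fbxo42, Cblb and Traf6, with the poly(A) signal hexamer in capitals, all on the plus strand of GRCm38 and written 5′ to 3′. They are shown because the proximal and distal ends of Nedd4, Cblb and Traf6 differed in which hexamer they carried, if any, whereas both ends of Fbxo42 carried AATAAA. Hexamers were searched for in the last 50 nt of each isoform, either the 2 main ones, AATAAA and ATTAAA, or 11 variants with 1 base changed. The variants changed the first base of AATAAA (giving TATAAA as well as CATAAA as well as GATAAA), the second (AGTAAA as well as ACTAAA), the third (AAGAAA), the fourth (AATGAA) or the fifth (AATATA as well as AATACA as well as AATAGA), or the first base of ATTAAA (giving TTTAAA). The hexamer in capitals is the one closest to the end, and a variant is given only where neither main one was found. In the Nedd4 sequence of activated cells no hexamer was found and the capitals mark the stop codon.
Nedd4, end in naive cells (chr9:72749812-72749841): aattccacaAATAAAgttctattctgattt
Nedd4, end in both activated libraries (chr9:72747204-72747233): acagggctttgatggcgttgatTAGattac
Fbxo42, end in naive cells (chr4:141204033-141204062): ttaacaAATAAAacaacggactgaattgtc
Fbxo42, end after 2 divisions (chr4:141200768-141200797): AATAAAggcgagatcttcgtcctggttcag
Cblb, close to the proximal ends (chr16:52205349-52205378): tcAATAAActgccttttgtaaggggttttt
Cblb, distal end in undivided cells (chr16:52208015-52208044): tttaaggtattttataaAATGAAtgttaac
Traf6, end in naive cells (chr2:101698595-101698624): aacaaataaataAATAAAttgatttcctca
Traf6, end in both activated libraries (chr2:101700916-101700945): ttgatgtTTTAAAttgctcagccccgcccc

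The genome after an end matters too, because the primer for reverse transcription binds runs of A and can also start on a run inside an mRNA. An end was called A-rich when at least 12 of the next 20 nt of the genome were A. The 20 nt after 4 of the ends are given below with A in capitals. The end of Nedd4 in activated cells had 11 A there and so lay just under the limit, that of Traf6 in activated cells had 15, and the ends of the Cblb isoforms in naive cells that stop inside an intron had 15 and 19. How far priming inside the mRNA contributed to these ends was not tested.
Nedd4, after the end in activated cells: AAAAAAAAAcAAgctgtggt
Traf6, after the end in activated cells: AAtAAAtAAAtAAAtAAAtA
Cblb, after the shorter intronic end in naive cells: AAAAAAAAAAgAAAtcAcAg
Cblb, after the longer intronic end in naive cells: AAAAAAAAAAAAAAAAAAAg

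**Figure D1:**
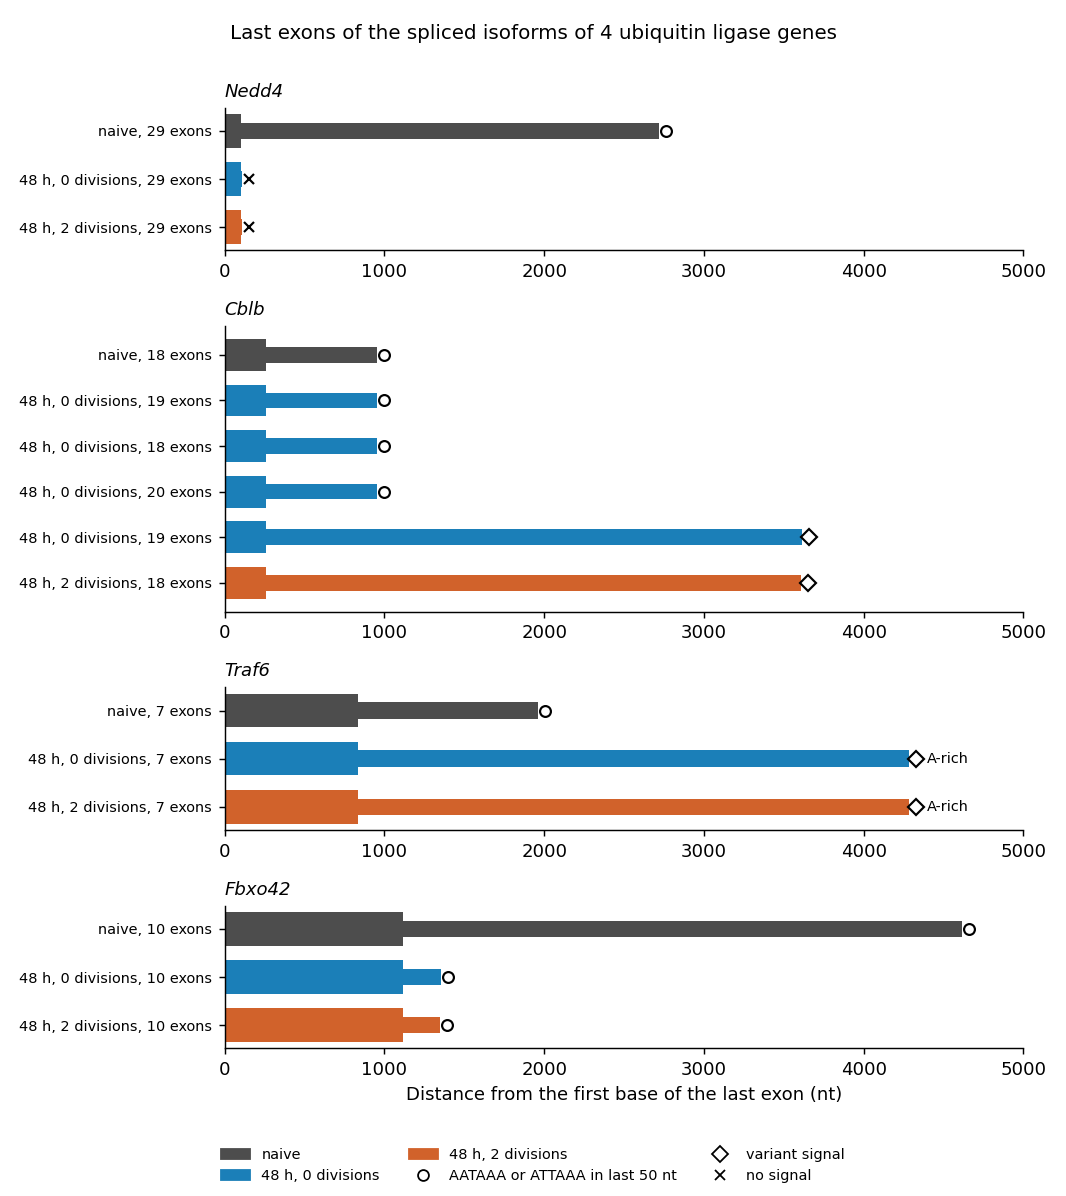
Last exons of the isoforms of Nedd4, Cblb, Traf6 and Fbxo42 that share the gene's main last exon, drawn to scale in nt from the first base of that exon, 1 bar per isoform and 1 colour per library. The thick part is coding sequence, the thin part is the 3′ UTR, and the sign at the end gives the poly(A) signal found in the last 50 nt. The bars of Nedd4 and Fbxo42 are longest in naive cells, at 2716 and 4614 nt, and those of Traf6 and Cblb reach 4283 and 3612 nt in activated cells.

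Nedd4 encodes the HECT ligase that gave its family its name. The gene (ENSMUSG00000032216.14) lies on the plus strand at chr9:72662346-72749852, and each library held 1 isoform of it. All 3 isoforms had the 29 exons of the annotated transcript Nedd4-201 and the same open reading frame of 887 codons, and their 5′ ends lay within 15 nt of each other. The last exon, which starts at position 72747126, measured 2716 nt in naive cells and 108 nt in both activated libraries. The difference was 2608 nt in both comparisons with naive cells, and 7 other families in undivided cells and 9 after 2 divisions were shortened further. A family here holds the isoforms of a library that share the first base of the last exon, and its length is the mean over them. Such ranks, here and below, use the lengths by which the genes were chosen and only describe them.

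The end of Nedd4 in naive cells lay 11 nt before that of Nedd4-201, with AATAAA 21 nt before the end and 8 A in the 20 nt after it. This isoform had a 3′ UTR of 2613 nt. In both activated libraries the mRNA ended at position 72747233, leaving 5 nt after the stop codon. This end had neither a main nor a variant hexamer and lay 30 nt before that of Nedd4-206, annotated as a retained intron. The coding sequence of Nedd4 was thus complete in each library, whereas nearly the entire 3′ UTR was missing from the activated isoforms. With ends followed by at least 10 A left out, a limit chosen after the data had been seen, no Nedd4 isoform remained in the activated libraries.

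Fbxo42 is an F-box protein with Kelch repeats, best known for binding p53. The gene (ENSMUSG00000028920.9) is found at chr4:141147913-141204062 on the plus strand. It also had 1 isoform per library, always with the 10 exons of Fbxo42-201 and an open reading frame of 717 codons, and the 5′ ends differed by at most 10 nt. The last exon measured 4614 nt in naive cells, against 1351 nt in undivided and 1349 nt in 2-division cells. It was thus shorter in both activated libraries, by 3263 and 3265 nt, and 3 and 2 families of the series shortened further.

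Both ends of Fbxo42 had AATAAA, 24 nt before the naive end and 32 and 30 nt before those of undivided and 2-division cells. The genome after them held 6, 2 and 3 A in 20 nt. The naive end was the annotated end of Fbxo42-201, and the 3′ UTR measured 3498 nt there, 235 nt in undivided and 233 nt in 2-division cells. Among the 4 genes, Fbxo42 was the one in which each end carried AATAAA and none was followed by 10 or more A.

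Traf6 is a RING ligase that builds lysine-63 linked ubiquitin chains downstream from Toll-like and interleukin-1 receptors, and in T cells it takes part in NF-κB signaling and in the restraint of activation. The gene (ENSMUSG00000027164.8) lies at chr2:101678429-101701669 on the plus strand. Each library held 1 spliced isoform, and all of them had the same 7 exons, a combination that is not annotated although each of its introns is. They lacked an exon of 203 nt (chr2:101680825-101681027) of Traf6-201 that lies upstream of the start codon, so the open reading frame of 530 codons was that of Traf6-201. The last exon measured 1962 nt in naive cells and 4283 nt in both activated libraries. Traf6 was therefore longer in both activated libraries, by 2321 nt, and 0 and 2 families of the series lengthened further.

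The 3′ UTR of Traf6 measured 1125 nt in naive cells and 3446 nt in the activated libraries. Both ends fell inside the annotated 3′ UTR, at 3045 and 724 nt before its end. The naive end had AATAAA 18 nt upstream and 9 A after it, and the activated end had the variant TTTAAA 23 nt upstream and was A-rich. Undivided cells held in addition a single-exon model of 2725 nt (chr2:101698221-101700945) with the same end. With A-rich ends left out, Traf6 had no isoform in either activated library.

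Cblb, a RING ligase that dampens antigen receptor signaling and sets the need for CD28 costimulation, varied most. The gene (ENSMUSG00000022637.11) spans chr16:52031225-52208048 on the plus strand and had 3 isoforms in the naive, 7 in the undivided and 1 in the 2-division library. In its main last exon, which starts at position 52204433, naive cells had 1 isoform with a last exon of 955 nt. Undivided cells had 4, of 952, 953, 953 and 3612 nt, and after 2 divisions there was 1 of 3609 nt. The proximal end was thus found in naive and undivided cells and the distal end in undivided and 2-division cells, with both ends present in undivided cells.

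The mean last exon of Cblb measured 955, 1617.5 and 3609 nt in naive, undivided and 2-division cells. The difference from naive cells was 662.5 nt without division and 2654 nt with 2 divisions, and that between the activated libraries was 1991.5 nt. These values hang on the use of a mean. By the median the difference between undivided and naive cells was -2 nt and by the longest isoform it was 2657 nt, and either way 2 ligase families instead of 3 were longer in undivided than in naive cells. The activated libraries differed by 2656 nt by the median and by -3 nt by the longest isoform.

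The proximal ends of Cblb lay at most 2 nt from an annotated end and had AATAAA 34 to 37 nt upstream. The distal ends lay 4 and 7 nt before the end of Cblb-201 and had no main hexamer. The variant closest to them was AATGAA, 13 and 10 nt upstream. Another variant, TATAAA, lies just before it in the sequence shown above and shares its first base. Neither kind was A-rich, with 5 or 6 A in the 20 nt after the end. The 3′ UTR measured 695 nt in naive cells, 692 to 693 nt in the proximal isoforms of undivided cells, and 3352 and 3349 nt in the distal isoforms of undivided and 2-division cells. Undivided cells also held a pair of short models that ended at position 52208041 inside the distal part, 1 with a single exon of 1743 nt and 1 with an intron of 34 nt that is not annotated (chr16:52206081-52206114).

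Splicing of Cblb varied with either 3′ end. An exon of 132 nt (chr16:52186349-52186480) was absent from 3 of the 6 isoforms with the main last exon, and the open reading frame measured 938 codons without it and 982 codons with it. The shorter frame occurred with the proximal end in naive and undivided cells and with the distal end after 2 divisions. The longer frame was seen only in undivided cells, in 2 proximal isoforms and 1 distal isoform. One of the proximal isoforms had 20 exons in a combination that is not annotated, with an annotated exon of 82 nt (chr16:52032178-52032259) upstream of the start codon.

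Of the 10 genes, Cblb alone had spliced isoforms that ended inside an intron of the main transcript. Their last exon starts at position 52047199, where an internal exon of the main transcript also starts, and runs on into the intron after it. It is called the intronic last exon here. It follows 2 exons and belongs to the annotated transcript Cblb-202, which is of the retained intron type. In naive cells it measured 3709 and 5879 nt and in undivided cells 5875 nt, and it was not seen after 2 divisions. All 3 isoforms were A-rich at the end and had no hexamer, and their open reading frame of 140 codons stopped within this exon. The means of 4794 nt in naive cells and 5875 nt in undivided cells gave a difference of 1081 nt, but the longest isoforms differed by -4 nt. All 9 Cblb isoforms with 3 or more exons, these included, started within 14 nt of each other.

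Among the relatives, the mean last exons of Itch, Cbl and Arih2 differed by at most 23 nt between libraries. Itch, a HECT ligase whose loss causes itching and autoimmunity in mice, had 1 isoform per library with the 25 exons of Itch-201 and an open reading frame of 864 codons. Its last exon measured 2489 nt in both the naive and the undivided library, against 2466 nt in 2-division cells. The first 2 of these ends had AATAAA 22 nt upstream and 1 A in the next 20 nt. The end after 2 divisions lay 23 nt further upstream, had no hexamer and was A-rich with 14 A. Of the genome after the shorter end, the first base is A and the hexamer of the longer end follows, as the lines below show with A in capitals in the first and the hexamer in capitals in the second.
Itch, after the end in 2-division cells (plus strand): AAAtAAAAAcAgAgtAAAAt
Itch, end in naive and undivided cells (chr2:155226826-155226855): tacattgaAATAAAaacagagtaaaatgag

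Cbl, which marks activated receptor kinases for breakdown, had 1 spliced isoform in naive cells and 1 in undivided cells, both with the 16 exons of Cbl-211 and an open reading frame of 913 codons. The last exon measured 2479 nt in naive cells and 2464 nt in undivided cells. Each of these ends was A-rich, with 16 and 14 A. The naive end had AATAAA 14 nt upstream and lay 3 nt past the annotated end of Cbl-201. The undivided end lay 12 nt before that annotated end and had no hexamer. A single-exon model was found beside each, of 1869 nt in naive cells and 1488 nt in undivided cells. Both of these models ended at the same base as the spliced naive isoform. No isoform of Cbl was found after 2 divisions. Peli1, a Pellino ligase that limits T cell activation, had single-exon models only, 1 of 1632 nt in undivided cells and 1 of 1478 nt after 2 divisions. The first ended 6 nt before the annotated end of Peli1-201 with AGTAAA 14 nt upstream. The second ended at the annotated end of Peli1-203, of the retained intron type, with TATAAA 32 nt upstream, and was A-rich with 19 A.

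Arih2 held both a proximal and a distal end in each library, with last exons of 476 nt and 2207 to 2209 nt, all with AATAAA 20 to 24 nt upstream and at most 5 A in the next 20 nt. Its mean last exon stayed between 1341.75 and 1342.5 nt. Without read counts, this mean cannot show a shift in use between both ends. The paper presents Arih2, from its 3′ end sequencing, as an example of a reversible change of the 3′ UTR. The listed isoforms of Arih2 also differed further upstream. In undivided cells, 2 of 4 isoforms, 1 with each end, carried an annotated exon of 46 nt (chr9:108629289-108629334, minus strand) that was in none of the isoforms of naive or 2-division cells. With this exon the open reading frame stopped after 110 codons, against 492 codons without it. A second difference was 3 nt at the start of another exon, which measured 340 nt in 3 of the 8 isoforms and 343 nt in 5. The 343 nt form was found with the proximal end in each library, and with the distal end after 2 divisions only. Nedd4l and Arih1 had no isoform in any library.

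**Figure D2:**
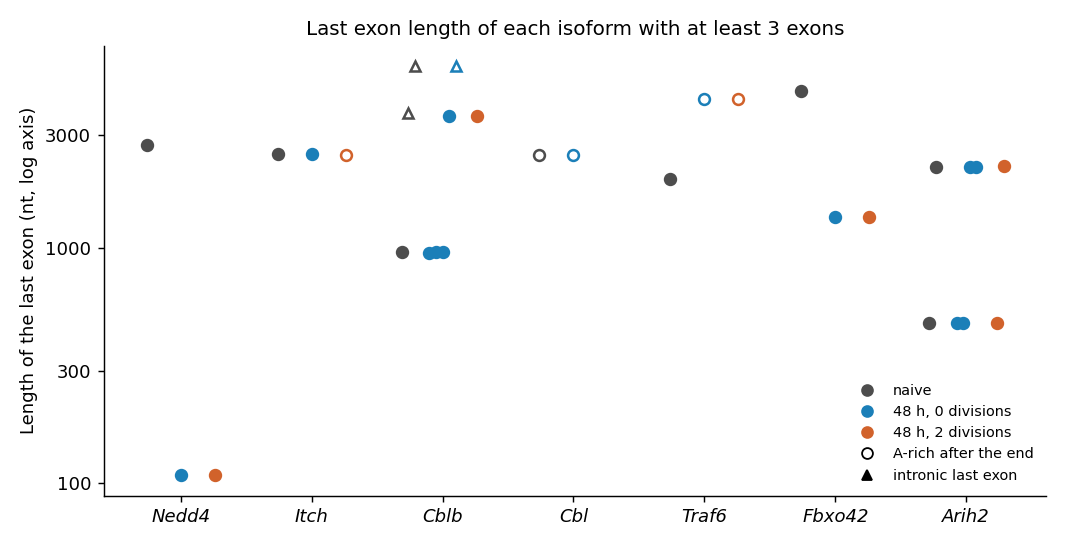
Length of the last exon in nt, on a log axis, for each isoform with at least 3 exons of the 7 genes that had one, coloured by library. Open symbols mark ends followed by at least 12 A in 20 nt and triangles mark the intronic last exon of Cblb. The points of Nedd4, Traf6 and Fbxo42 are apart between naive and activated libraries, those of Itch and Cbl lie together, and those of Arih2 form the same pair of lengths in each library.

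**Figure D3:**
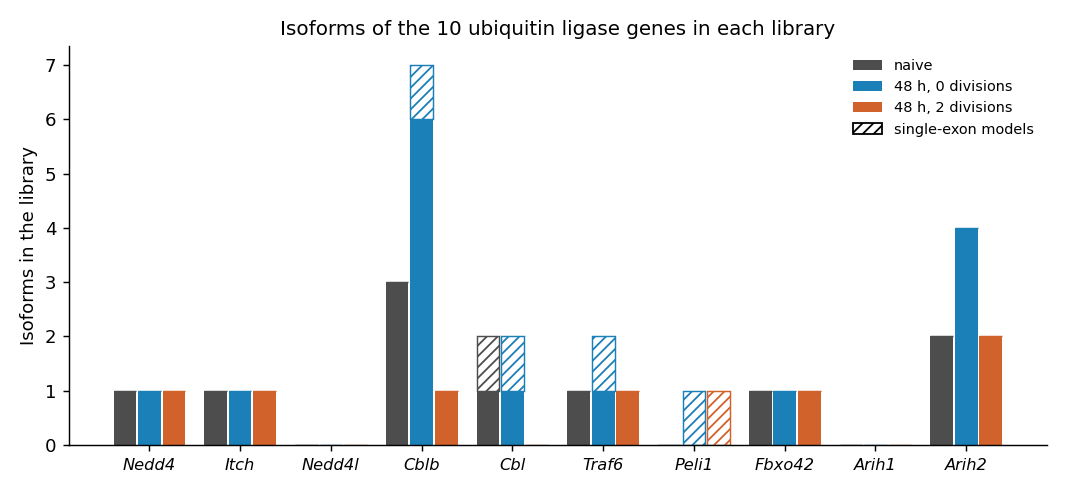
Number of isoforms of each of the 10 genes in each library, with single-exon models hatched. Cblb and Arih2 had the most isoforms in undivided cells, 7 and 4, and Nedd4l and Arih1 had none.

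In total, 8 of the 10 genes had an isoform, with 7 seen in the naive, 8 in the undivided and 7 in the 2-division library. Over the whole series, 4748, 5575 and 5160 annotated genes had an isoform in these libraries. Of the 38 isoforms, 6 had a single exon, or 15.8% (exact 95% interval, 6.02 to 31.3%), beside 9.28% over all genes. Among the other 32, 23 had an annotated chain of introns, a share of 71.9% (exact 95% interval, 53.3 to 86.3%), beside 61.9% over all genes. Such intervals hold for counting error alone, because isoforms from a shared gene depend on each other. AATAAA or ATTAAA was found in the last 50 nt of 20 of the 32, or 62.5% (43.7 to 78.9%), beside 68.8% over all genes. A variant hexamer alone was found in 5 of the 32, or 15.6%, beside 14% over all genes. A-rich ends made up 8 of the 32, or 25% (11.5 to 43.4%), beside 20.8% over all genes. The shares over all genes thus lay inside the intervals of the ligases. Of all 38 ends, 28 lay within 24 nt of an annotated end, or 73.7% (56.9 to 86.6%). For this measure no share over all genes is given, so nothing about the ligases is read from it.

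Set against all families of the series, the ligases spread far to both sides because they had been chosen for that. Between undivided and naive cells, 3931 families could be compared, of which 13.1% were shorter by over 100 nt in undivided cells and 5.7% were longer. Among the 8 ligase families, 2 were shorter and 3 longer. After 2 divisions against naive cells, 13.6% of 3711 families were shorter and 4.82% longer, and among 6 ligase families 2 were shorter and 2 longer. Between 2 divisions and undivided cells, 8.38% of 4616 families were shorter and 6.93% longer, and of 6 ligase families 0 were shorter and 1 was longer. As the last exons had served to pick the genes, nothing is read from these counts. The first 2 comparisons also share the naive library.

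The median difference was 0 nt over all families in each comparison, and -0.125, -11.25 and 0 nt over the ligase families in the same order. The ligase family closest to the limit of 100 nt from below was that of Itch after 2 divisions, at -23 nt, and the closest from above was that of Cblb in undivided cells, at 662.5 nt. Most of the ligase lengths rest on single isoforms. Both libraries had 1 isoform each in 5 of 8, 5 of 6 and 4 of 6 ligase families, whereas over all families this was so in 36.4, 38.6 and 38.4%. With at least 2 isoforms asked for in each library, a setting chosen after the data had been seen, 1 ligase family was left per comparison, that of Arih2, and it was neither shorter nor longer.

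**Figure D4:**
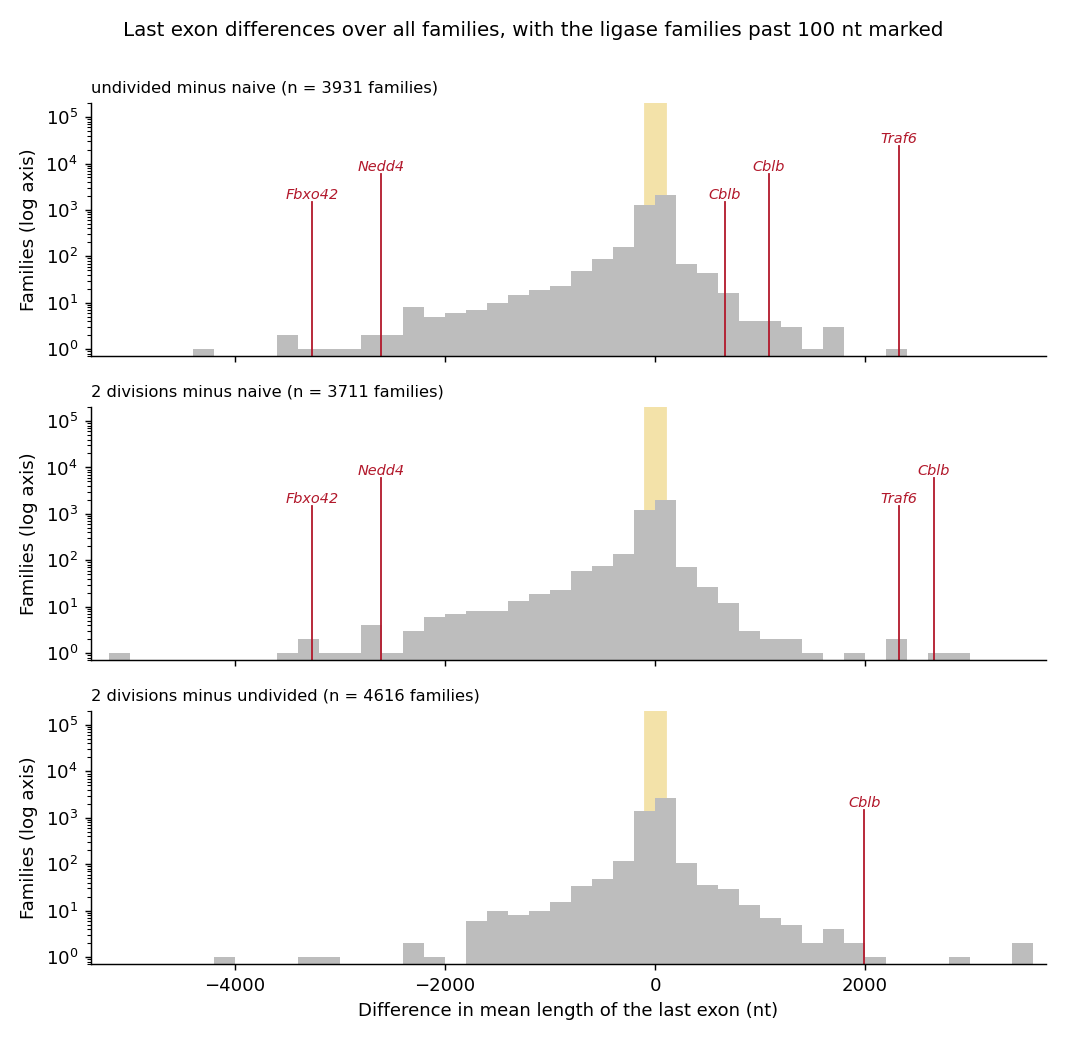
Difference in the mean length of the last exon in nt for all families in both libraries of a comparison, as histograms with bins of 200 nt and a log axis of counts. Red lines mark the ligase families past 100 nt and their height has no meaning, and the shaded band spans the limit on both sides. Fbxo42 at -3263 nt and Traf6 at 2321 nt lie in the outer tails of the comparison of undivided with naive cells.

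The parts of the 3′ UTR that were present with the distal end and absent with the proximal one measured 2608 nt in Nedd4, 2660 nt in Cblb, 2321 nt in Traf6, 3265 nt in Fbxo42 and 1733 nt in Arih2. As a reference, windows of the same length were taken from the end of all annotated 3′ UTRs that were long enough, between 2267 and 6197 windows. The share of A and T was 57.4% in Nedd4, 60.4% in Cblb and 57.9% in Traf6, close to the window medians of 58.3, 58.4 and 58.3%. It was lower in Fbxo42 and Arih2, at 49.8% and 50.4% against medians of 58.3 and 58.2%. The AU-rich core ATTTA, a motif of unstable mRNAs, occurred 5 times in Nedd4, 3 times in Cblb, 5 times in Traf6, 5 times in Fbxo42 and 1 time in Arih2. The window medians were 5, 5, 4, 6 and 3.

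These stretches were also searched for sites of 7 miRNAs that are known in T cells, as 7 letters complementary to the seed (bases 2 to 8) on the strand of the gene. The letters were TGAATGT for miR-181a, AATGTGA for miR-23a, ACTGTGA for miR-27a, AGTTCTC for miR-146a, GCACTTT for miR-17, GCACCTT for miR-18a and AGCATTA for miR-155. Of 35 pairs of a miRNA and a stretch, 7 held a match, or 20%, and the share of reference windows with a match averaged 21.7% over the same pairs. Matches in the ligase stretches were therefore about as common as in 3′ UTRs at large. They were for miR-27a in Nedd4, miR-181a and miR-23a in Cblb, miR-146a in Traf6, miR-146a in Fbxo42, and miR-181a and miR-23a in Arih2, the last pair overlapping by 5 letters. A match describes these letters and does not show that a miRNA binds.

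Traf6 is known as a target of miR-146a, a brake on inflammatory signaling, so its matches were placed along both 3′ UTRs. The mature miRNA from RefSeq is given first with its seed in capitals, followed by the 3 matches in the last exon of Traf6 (plus strand, GRCm38) with the 7 letters in capitals. They start 1297, 1361 and 2173 nt from the first base of the last exon. The end of Traf6 in naive cells lay at 1962 nt and that in activated cells at 4283 nt, so the first 2 matches were inside the 3′ UTR in each library and the last one in the activated libraries only. For AGTTCTC, 18.6% of the reference windows as long as the part between both ends held a match.
miR-146a-5p: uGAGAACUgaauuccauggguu
Traf6, first match (chr2:101697944-101697973): accgctctggtgttgAGTTCTCatttagtt
Traf6, second match (chr2:101698008-101698037): tccctggaaggcttaAGTTCTCaagtactc
Traf6, last match (chr2:101698820-101698849): agtactttggagtctAGTTCTCagggagcc

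Cblb had 2 matches to miR-181a, a miRNA that tunes antigen receptor signaling, 1 in the proximal part 894 nt into the last exon and 1 in the distal part at 3602 nt. The distal match overlapped the variant hexamer AATGAA of the distal end and stopped 4 nt before the end of the longest isoform. Both windows are given with the 7 letters in capitals.
Cblb, proximal match (chr16:52205311-52205340): aggtgggggaaaaccTGAATGTaaaaagca
Cblb, distal match (chr16:52208019-52208048): aggtattttataaaaTGAATGTtaacaaat

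A list of 111 other ubiquitin ligase genes and partners was examined for comparison. Of these, 53 were seen in the naive, 59 in the undivided and 51 in the 2-division library, with 109, 150 and 118 isoforms. Of all annotated genes, 4748, 5575 and 5160 were seen in these libraries. Cullin-RING genes were seen for 14, 18 and 13 of 27 genes in the same order, RING-between-RING genes for 5, 5 and 6 of 12, TRAF genes for 3, 4 and 4 of 6, HECT genes outside the Nedd4 family for 5, 4 and 2 of 11, and Nedd4 relatives and adaptors for 3, 2 and 2 of 8. Of 43 families in undivided against naive cells, 5 (11.6%) were shorter and 4 (9.3%) longer, beside 13.1% and 5.7% of all families. After 2 divisions against naive cells it was 6 (14.3%) and 3 (7.14%) of 42, beside 13.6% and 4.82% of all families. Against undivided cells it was 6 (13.6%) and 2 (4.55%) of 44, beside 8.38% and 6.93%. As these shares rest on 2 to 6 families each, nothing particular to the list is read from them. The median difference was 0 nt in each comparison.

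Among these genes, Trim25, a RING ligase of antiviral RIG-I signaling, had a mean last exon of 4098, 2125 and 2121.33 nt in naive, undivided and 2-division cells, from 1, 3 and 3 isoforms. Dtx3l, the partner of Parp9 in interferon responses, had 2111, 1369 and 1369 nt, from 2, 1 and 1 isoforms. In each library, 1 of these isoforms had an A-rich end. Wwp2, a Nedd4 relative, had 325 nt in naive cells and 1708 nt in undivided cells, from 1 isoform each. Rnf2, the catalytic ligase of Polycomb complex PRC1, had 1470.5, 1940.67 and 1903 nt. Traf1, which is induced by NF-κB, had 773.5, 779.357 and 886.167 nt, from 2, 14 and 12 isoforms.

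Genes of any kind whose last exon ran most like that of a ligase were sought over the 3410 families present in all 3 libraries. Likeness was measured as the distance between the log2 ratios of undivided and of 2-division to naive cells. Closest to Fbxo42 were Vrk1 (distance 0.009) and Sms (0.011), closest to Traf6 were Ergic2 (0.143) and Nasp (0.145), and closest to Cblb were Sppl2a (0.4) and Ppp6c (0.422). The genes nearest to Nedd4 lay further off, Hook3 at 2.261 and Agpat3 at 2.589. The log2 ratio of Nedd4 was -4.65 in each activated library, against -3.05 in Hook3. It rests on 1 isoform per library and on an activated end with no hexamer and 11 A after it. These distances describe 3 libraries and rest on few isoforms. As the same lengths had served to choose the ligases, nothing particular to a gene is read from them.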

How the data were processed

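The deposited files held transcript models (exon positions, strand and locus, with no values), used as listed. Per the study's methods, the authors used ccs for consensus reads, lima for primer removal, isoseq3 to keep and cluster reads with a poly(A) tail, pbmm2 for mapping, isoseq3 again for collapsing and SQANTI3 for annotation. The submitters' processing notes name mm10, GRCm38, minimap2 and Subread.

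Isoforms were assigned, on the same strand, to the GENCODE M21 gene with most shared splice sites, or else most exonic overlap. The study used a later GENCODE release, so a chain called unannotated here may be annotated there. Genome sequence was GRCm38.p6 from RefSeq. Last exons were grouped by their first base, and mean lengths that differed by over 100 nt were called shorter or longer. Ends within 24 nt were merged. An open reading frame is the longest from an annotated start codon, without the stop codon. All 7 miRNAs matched RefSeq.

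One B cell marker gene of the list is not reported here. The members and gene lists were chosen with earlier results of these data known. Named genes are the 10 members, the 3 largest changes per direction in the ligase list, of which the text gives some, and the 2 most alike families per gene. Merging of ends, call limit, median, longest isoform, overlap assignment and A-rich ends were varied. The comparison was tested on 2000 simulated families and recovered 200 of 200 changes, which checks the code only. Python 3.11.15, numpy 2.4.6, scipy 1.17.1 and matplotlib 3.10.9 were used.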

Additional observations from a re-analysis of the deposited data

How the results depend on the processing

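No paired analysis was possible because each condition had 1 library, and no library could be left out. With A-rich ends (12 A in 20 nt) left out, ligase families called longer went from 3 to 1 in undivided against naive cells. After 2 divisions against naive cells they went from 2 to 1. The families compared fell from 8 to 5 and from 6 to 4. The calls lost were those of Traf6 and of the intronic last exon of Cblb, which could no longer be compared. Isoforms went from 11 to 7 in naive cells and from 8 to 5 after 2 divisions, and distinct 3′ ends after 2 divisions from 8 to 5. With the limit at 10 A, chosen after the data had been seen, each of these comparisons with naive cells had 1 shorter and 1 longer family, as the Nedd4 end of activated cells was left out too. With at least 2 isoforms in each library, also chosen afterwards, 0 families were shorter and 0 longer in each comparison, since only Arih2 could be compared. By the longest isoform, 0 families were longer after 2 divisions than in undivided cells. The differences of Cblb that changed sign were -2 nt by the median (main last exon, undivided against naive cells), -4 nt by the longest isoform (intronic last exon, undivided against naive cells) and -3 nt by the longest isoform (main last exon, 2 divisions against undivided cells). Asking for 2 isoforms, 30, 35 and 31 of the other ligase genes were seen in naive, undivided and 2-division cells. Smaller changes were a loss from 3 to 2 families longer in undivided than in naive cells, both by the median and by the longest isoform, and, with A-rich ends left out, of distinct 3′ ends from 10 to 7 in naive and from 11 to 8 in undivided cells and of isoforms from 19 to 14 in undivided cells. With single-exon models left out, isoforms went from 11 to 10, 19 to 15 and 8 to 7 in naive, undivided and 2-division cells, and with ends merged within 10 nt undivided cells had 12 ends. Depth is unknown, as no read counts were given, and a missing isoform does not show that an end was unused.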
